A study of Homo sapiens with 6 samples.

Results

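The MHC class I antigen presentation genes were examined in EJ cells after STIL knockdown. They were taken by gene symbol and comprised HLA-B, HLA-C, HLA-E, B2M, TAP1, TAP2, TAPBP, PSMB8 and PSMB9, 9 of the 15953 genes measured, and every one of them was tested. EJ is an established human bladder cancer cell line. RNA-seq was performed on 3 libraries of EJ cells carrying the shNC control lentivirus and 3 libraries of EJ cells carrying the shSTIL lentivirus, called control and STIL-knockdown here. Both groups are stable lines cultured in the same serum-containing medium. The hairpin sequence, the number of hairpins and whether the cells of a group descend from 1 clone are not given in the sources used here, and neither is whether the 3 libraries of a group are separate cultures, so P-values measure the spread between these libraries, which may be technical.

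The libraries held 16214800 to 16431200 reads in the control group and 16734500 to 16901600 reads in the STIL-knockdown group. Levels are given as log2 CPM, the read count scaled by depth and by the edgeR normalization of the authors, on the log2 scale. STIL had a log2 CPM of 5.98, 6.10 and 6.01 in controls and 4.05, 4.06 and 4.01 after knockdown. The knockdown left 25.2% of the control level, so each library carried the STIL level of its label. The epithelial keratins KRT8 and KRT18 were at a log2 CPM of 7.81 or more in every library, although KRT8 was a lower DEG (log2 fold change -0.70) and KRT7, another keratin, a higher DEG (0.49), whereas EPCAM had at most 21 reads and CDH1 at most 3 reads. Of the leukocyte markers, CD14 had at most 4 reads and LYZ at most 9 reads in any library. CD68, a lysosomal gene of macrophages that other cells also express, had 173 to 193 reads in controls and 218 to 250 after knockdown, and PTPRC and CD3E were not analysed here. The summed level of the 3 leukocyte markers measured was 11.8 to 12.6 CPM in control and 13.6 to 15.4 CPM in STIL-knockdown libraries, with none of the 3 called, and the part of this in the results was not tested. The endothelial markers had at most 11 reads, the 1 fibroblast marker measured, COL1A1, a lower DEG, at most 59 reads, and the mesenchymal genes, 2 of 3 of which were lower DEGs, summed to 1540 to 1580 CPM in controls and 950 to 971 CPM after knockdown.

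MHC class I molecules display peptides from inside the cell to CD8 T cells. Proteins are cut into peptides by the proteasome, in which interferon can exchange constitutive catalytic subunits for the immunoproteasome subunits encoded by PSMB8, PSMB9 and PSMB10. The TAP1 and TAP2 proteins together pump the peptides into the endoplasmic reticulum, where tapasin, encoded by TAPBP, helps load them onto a heavy chain (HLA-B, HLA-C or HLA-E) paired with the light chain encoded by B2M. HLA-B and HLA-C are classical heavy chains, and HLA-E, a nonclassical heavy chain, binds the NKG2A receptor of natural killer cells. In tumours these genes are of interest because their loss can hide cancer cells from T cells.

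The start regions of these genes are known to share control elements, among them sites for interferon regulatory factors (IRF) and for NF-kB. Upstream sequence was read from RefSeq (GRCh38.p14), which held entries for 8 of the 9 genes in the table used here, HLA-E being the other, with 2 starts each for TAP1 and PSMB8. All bases are those of the reference genome. The alleles of EJ cells may differ from them and were not examined. The first 3 stretches below are shown in full because HLA-B and HLA-C have similar upstream sequence while HLA-C was called lower and HLA-B was not, and because B2M is their partner. They run from 180 to 51 bases before the RefSeq start, 5′ to 3′ on the strand of the gene. Capitals mark matches, on either strand, to GAAANNGAAA, to GAANNGAAA (both IRF type) and to GGGNNTNNCC (NF-kB type).
HLA-B (chr6:31357230-31357359, minus strand): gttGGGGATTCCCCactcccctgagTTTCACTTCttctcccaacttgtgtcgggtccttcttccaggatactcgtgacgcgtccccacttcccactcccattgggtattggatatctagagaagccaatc
HLA-C (chr6:31272143-31272272, minus strand): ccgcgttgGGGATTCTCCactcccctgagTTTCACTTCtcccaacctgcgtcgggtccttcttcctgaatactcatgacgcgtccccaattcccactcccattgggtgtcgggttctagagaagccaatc
B2M (chr15:44711337-44711466, plus strand): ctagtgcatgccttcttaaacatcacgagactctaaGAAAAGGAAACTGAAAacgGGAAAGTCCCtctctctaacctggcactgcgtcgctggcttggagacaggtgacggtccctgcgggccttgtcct
For the transporter genes and TAPBP, 30 bases around the IRF-type match are shown. TAP1 and TAP2 rose and TAPBP was not called, while B2M, which also matches GAAANNGAAA, fell. Whether these letters bear on any of the changes was not tested.
TAP1 (chr6:32853817-32853846, minus strand): gcggccgcTTTCGATTTCGCTTTCccctaa
TAP2 (chr6:32838781-32838810, minus strand): tggctgggGAAGCGAAAGCGAAAgctgccc
TAPBP (chr6:33314079-33314108, minus strand): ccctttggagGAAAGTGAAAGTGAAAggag

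Within 250 bases before the RefSeq start, GAAANNGAAA matched B2M, TAP1, TAP2 and TAPBP, against 3.02% of the 35116 promoters in the table, the match of TAP1 lying before only 1 of its 2 starts. GAANNGAAA matched HLA-B, HLA-C and TAP2, against 6.56% of promoters, and in TAP2 the matches to both words overlap. GGGNNTNNCC matched HLA-B, HLA-C, B2M, TAPBP and the same start of TAP1, against 19.7% of promoters. The gene positions given below place the start of TAP1 at base 32853978 and that of TAPBP at base 33314212, upstream of these matches. By those positions the matches of TAP1 and TAPBP to GAAANNGAAA and GGGNNTNNCC lie inside the gene and not before it. PSMB8 and PSMB9 held none of the 3 words in these windows. The search also covered CCAAT, found in 5 of the 10 promoters of these genes against 32% of promoters, and TGACG, found in 6 against 21.2%. PSMB8 held TGACG before 1 of its 2 starts, and PSMB9 held both words. The 250 bases of HLA-B and HLA-C were identical at 226 of 254 aligned positions (89%). The words were chosen with the sequences in view, and a match describes letters and not a bound factor.

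Of the 9 class I genes, 2 rose, 5 fell and 2 did not pass the test after STIL knockdown. TAP1 and TAP2 rose, and HLA-C, B2M, HLA-E, PSMB8 and PSMB9 fell, the calls of PSMB8 and PSMB9 being lost when some libraries were left out. HLA-B and TAPBP were not called. The difference was fitted with limma on the log2 CPM of all genes, and a gene was called a DEG at a Benjamini-Hochberg adjusted p under 0.01. STIL knockdown changed many genes: 47.1% of all genes tested were called, 23.5% as higher and 23.6% as lower, and where the mean log2 CPM reached 3 (9943 genes) the share was 65.2%. The 7 of 9 class I genes called (77.8%) are therefore read gene by gene and not as a property of the list. The same 7 genes had no overlap between the groups, as for 60.3% of all genes. The median log2 fold change of the 9 genes was -0.20, beside 0.01 over all genes. The RNA came from whole cultures, so fewer cells with a transcript and less of the transcript per cell cannot be told apart.

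**Figure D1:**
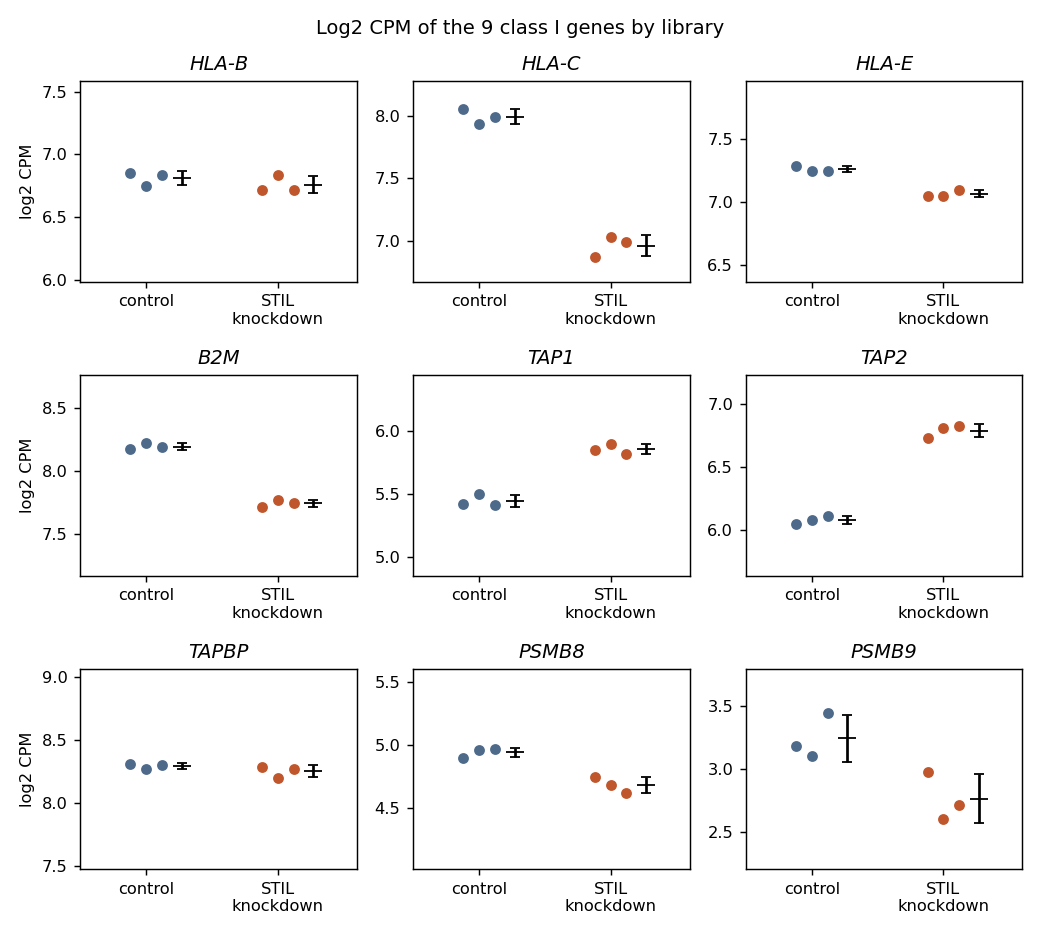
Log2 CPM of each class I gene in the 3 control and 3 STIL-knockdown libraries, with the mean and SD of each group as a black bar; every panel spans the same range of the log2 scale. The groups lie apart for 7 genes, furthest for HLA-C (7.93 or more against 7.03 or less) and TAP2 (6.11 or less against 6.73 or more), and overlap for HLA-B and TAPBP.

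HLA-C showed the largest change of the heavy chains. HLA-C spans bases 31268749 to 31272086 of chromosome 6 of GRCh38 (minus strand) and has 8 exons. Its log2 CPM was 8.05, 7.93 and 7.99 in controls and 6.87, 7.03 and 6.99 after knockdown. All 3 STIL-knockdown libraries lay well below all controls. The log2 fold change amounted to -1.03 (standard error, SE, 0.04, adjusted p = 5.0e-10 in limma), which left 49% of the control level. These values rest on 3972 to 4257 reads in each control library and 1997 to 2243 after knockdown. Among all 3759 lower DEGs, 460 (12.2%), HLA-C included, fell by at least this much.

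HLA-B, the neighbouring classical heavy chain gene, did not pass the test. HLA-B spans bases 31353872 to 31357187 of chromosome 6 (minus strand), with 8 exons. Its values were log2 CPM 6.85, 6.75 and 6.84 in controls and 6.72, 6.84 and 6.72 after knockdown, so that the groups overlapped. The log2 fold change of HLA-B was -0.05 (95% interval -0.15 to 0.04, adjusted p = 0.333 in limma). HLA-E spans bases 30489467 to 30494205 of chromosome 6 (plus strand). HLA-E was at a log2 CPM of 7.29, 7.25 and 7.25 in controls and 7.05, 7.05 and 7.10 after knockdown. The groups lay apart, but the difference was small, with 87.2% of the control level left (log2 fold change -0.20, SE 0.03, adjusted p = 1.5e-04 in limma).

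Of the other heavy chain genes, HLA-F had 206 to 222 reads in controls and 210 to 255 after knockdown and was not called. HLA-G, normally a placental gene, had at most 1 read in any library. The HLA genes are alike in sequence, and RSEM can divide reads between them. Fractional reads, a sign of such sharing, occurred in 2 libraries for HLA-C, in 3 for HLA-B and in 3 for HLA-E. They also occurred in 5 libraries for TAPBP, which is not an HLA gene. The largest distance from a whole read was 0.02 for HLA-C, 0.41 for HLA-B, 0.15 for HLA-E and 0.41 for TAPBP. A fraction does not measure how many reads were divided, and the amount of sharing between the HLA genes was not tested.

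B2M, the light chain shared by all class I heavy chains, fell in every STIL-knockdown library. B2M is the only gene of the 9 outside chromosome 6, and it spans bases 44711487 to 44718877 of chromosome 15 (plus strand). B2M stood at a log2 CPM of 8.17, 8.22 and 8.19 in controls and 7.71, 7.77 and 7.74 after knockdown. The spread within each group was much smaller than the distance between them. The log2 change from control amounted to -0.45 (SE 0.03, adjusted p = 3.7e-08 in limma). This left 73.2% of the control level, with 4634 to 4847 reads in each control library against 3584 to 3765 after knockdown.

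The balance between heavy chains and light chain was read as the log2 ratio within each library, which does not depend on the scaling between libraries. The ratio of HLA-C to B2M was -0.12, -0.29 and -0.20 in controls and -0.84, -0.75 and -0.75 after knockdown, a change of -0.58 (SE 0.06). The ratio of HLA-B to B2M moved the other way, from -1.38 ± 0.08 to -0.98 ± 0.05 (SD, n = 3), a change of 0.40. The ratio of HLA-E to B2M changed by 0.25, from -0.93 ± 0.04 to -0.68 ± 0.05 (SD, n = 3). Against B2M, HLA-C was thus lower and HLA-B and HLA-E were higher in all 3 STIL-knockdown libraries than in any control. The exact two-sided permutation test gave p = 0.1 for each of these ratios (adjusted p = 0.14 over the 7 ratios examined), the smallest that the design allows.

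**Figure D2:**
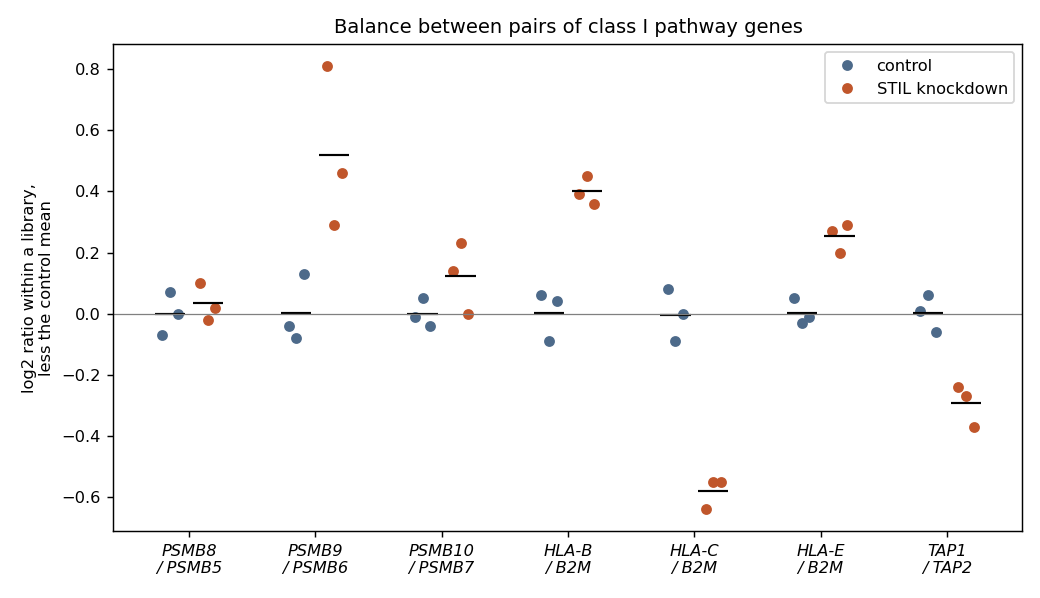
Log2 ratio of 7 gene pairs within each library, less the mean of the control libraries, with points for libraries and bars for group means. The STIL-knockdown libraries lie above the controls for HLA-B and HLA-E against B2M and for PSMB9 against PSMB6, below them for HLA-C against B2M and TAP1 against TAP2, and overlap with them for PSMB8 against PSMB5 and PSMB10 against PSMB7.

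The peptide transporter genes were the class I genes that rose. TAP2 spans bases 32821833 to 32838727 of chromosome 6 (minus strand) and has 12 exons. TAP2 measured a log2 CPM of 6.05, 6.08 and 6.11 in controls and 6.73, 6.81 and 6.83 after knockdown. All 3 STIL-knockdown libraries lay above all controls, with a log2 fold change of 0.71 (SE 0.04, adjusted p = 3.5e-09 in limma). This amounts to 164% of the control level, from 1063 to 1101 reads in each control library and 1820 to 1928 after knockdown. Among all 3750 higher DEGs, 874 (23.3%), TAP2 included, rose by at least this much.

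TAP1 spans bases 32845209 to 32853978 of chromosome 6 (minus strand) and has 11 exons. TAP1 was at a log2 CPM of 5.42, 5.50 and 5.41 in controls and 5.85, 5.90 and 5.82 after knockdown. It rose by a log2 fold change of 0.41 (SE 0.04, adjusted p = 3.3e-06 in limma), to 133% of the control level. The log2 ratio of TAP1 to TAP2 went from -0.63, -0.58 and -0.70 in control to -0.88, -0.91 and -1.01 in STIL-knockdown libraries. The ratio was lower in all 3 STIL-knockdown libraries than in any control, a change of -0.30 (SE 0.05, exact two-sided permutation test, p = 0.1, adjusted p = 0.14 over the 7 ratios).

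TAPBP, which encodes the tapasin that bridges the transporter and the heavy chain, did not pass the test. TAPBP spans bases 33303573 to 33314212 of chromosome 6 (minus strand). The libraries gave log2 CPM values of 8.31, 8.27 and 8.30 in controls and 8.29, 8.20 and 8.27 after knockdown. The groups overlapped, and the log2 fold change was -0.04 (95% interval -0.11 to 0.03, adjusted p = 0.324 in limma), with a sign that turned when the libraries were centred on their medians.

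Both immunoproteasome genes among the 9 fell, and they had the lowest read numbers of the 9. PSMB8 spans bases 32840717 to 32844047 of chromosome 6 (minus strand) and encodes the subunit that takes the place of PSMB5. PSMB8 had log2 CPM values of 4.90, 4.96 and 4.97 in controls and 4.75, 4.68 and 4.62 after knockdown, a log2 fold change of -0.26 (SE 0.06, adjusted p = 0.00126 in limma). The groups did not overlap. The call was lost without control replicate 2 (adjusted p = 0.0133), control replicate 3 (0.015), STIL-knockdown replicate 2 (0.0149) or STIL-knockdown replicate 3 (0.0115).

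PSMB9 spans bases 32854161 to 32859585 of chromosome 6 (plus strand) and encodes the subunit that takes the place of PSMB6. It had the fewest reads of the 9 genes, 138 to 172 in each control library and 102 to 133 after knockdown. PSMB9 had log2 CPM values of 3.18, 3.10 and 3.45 in controls and 2.98, 2.60 and 2.71 after knockdown. The lowest control and the highest STIL-knockdown library lay close together. The log2 fold change of PSMB9 was -0.48 (SE 0.13, adjusted p = 0.00686 in limma), and the call was lost without any 1 of the 6 libraries (adjusted p 0.0206 to 0.0963). Within these limits the fall of PSMB9 held in direction and not in its call.

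The constitutive subunits fell as well, so the balance with the immunoproteasome subunits was compared. PSMB5 fell by 0.29 (limma adjusted p = 2.4e-05), PSMB6 by 0.99 (limma adjusted p = 1.0e-09) and PSMB7 by 0.20 (limma adjusted p = 7.0e-04) on the log2 scale. PSMB10, the interferon-induced counterpart of PSMB7, had a log2 fold change of -0.08 (95% interval -0.24 to 0.09) and was not called. The log2 ratio of PSMB9 to PSMB6 was -3.85, -3.89 and -3.68 in controls and -3.00, -3.52 and -3.35 after knockdown, a change of 0.51 (SE 0.17, exact two-sided permutation test, p = 0.1, adjusted p = 0.14). This ratio was higher in all 3 STIL-knockdown libraries than in any control. The ratio of PSMB8 to PSMB5 changed by 0.03 (SE 0.05, p = 0.5 by the same exact test) and that of PSMB10 to PSMB7 by 0.13 (SE 0.07, p = 0.2 by the same exact test), and in both the groups overlapped.

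The levels of the 9 genes were compared per length, as CPM per kilobase of the principal GENCODE 29 transcript. Where several transcripts shared the best principal rank, the longest was taken, and the length used for B2M was 1705 bases. The order of the genes can depend on this choice, and other transcripts were not tried. In control cells B2M came first at 172 CPM per kilobase, and TAPBP and HLA-C followed at 166 each, with ranges that overlapped, and the range of HLA-C (159 to 173) also reached that of B2M (170 to 174). HLA-B (72.8) and HLA-E (59.1) came next, then PSMB8 (27.4) and TAP2 (27.1), whose ranges overlapped, and TAP1 (14.7) and PSMB9 (12.2) were lowest. In STIL-knockdown cells TAPBP came first at 162 CPM per kilobase and B2M second at 126. HLA-C, at 81.2, had come down to near HLA-B at 70.2, with no overlap of their ranges (76.1 to 85 against 68.1 to 74.2). TAP2 at 44.3 now stood above PSMB8 at 22.8. The other ranks were as in control cells.

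Of the 9 genes, 8 lie in the MHC on chromosome 6. TAP2, PSMB8, TAP1 and PSMB9 are contained in 37.8 kilobases. By the gene positions given above, the start sites of TAP1 and PSMB9 are 183 bases apart and point away from each other. Neighbours in this cluster moved in opposite directions: TAP2 and TAP1 rose, whereas PSMB8 between them and PSMB9 beside TAP1 fell, the call of PSMB9 being lost without any 1 library. Between HLA-F and TAPBP (chromosome 6, 29723279 to 33314212), 113 other genes were measured, of which 25 were higher and 25 lower DEGs (44.2%), close to the 47.1% of all genes. The noncoding gene PSMB8-AS1 overlaps TAP1 in the annotation and was not analysed here, and whether the counting used strand is not given in the sources used here.

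**Figure D3:**
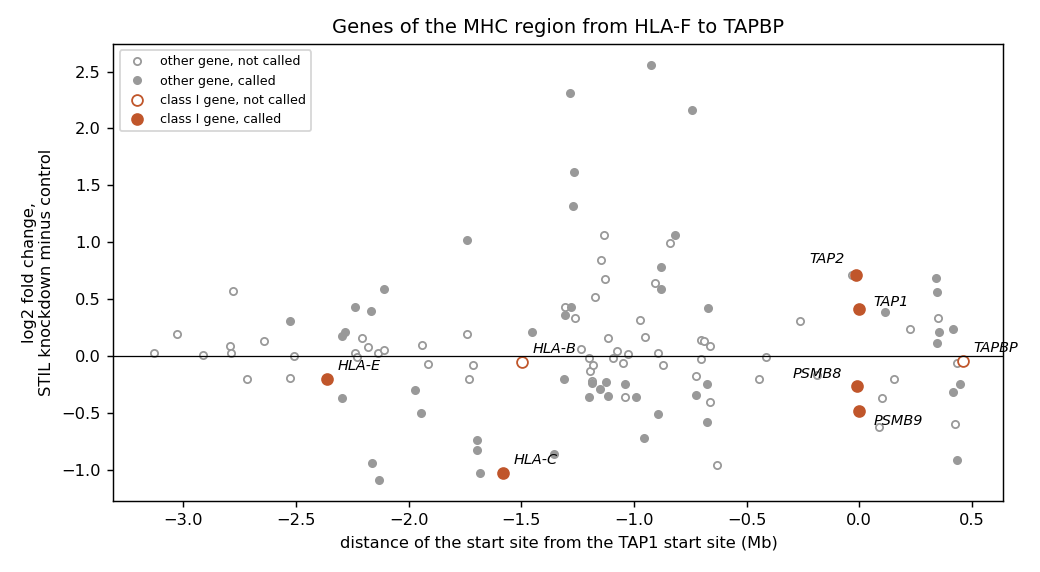
Log2 fold change of 121 genes of the MHC region against the distance of their start site from that of TAP1, in megabases, with class I genes in orange and filled points for DEGs. TAP2 (0.71) and TAP1 (0.41) lie above 0 and PSMB8 (-0.26) and PSMB9 (-0.48) below it at nearly the same position, and HLA-C (-1.03) lies far below HLA-B (-0.05).

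Genes that act with the 9 were taken from lists of the pathway. No list was tested as a set, and the counts below stand beside the 47.1% of all genes called (23.5% higher, 23.6% lower) and the 65.2% called where the mean log2 CPM reached 3. Of 11 genes of peptide loading, protein folding and peptide trimming in the endoplasmic reticulum, 2 rose, 4 fell and 5 were not called (median log2 fold change -0.08). CALR, which encodes calreticulin, the chaperone that holds the heavy chain and B2M in the loading complex, was at a log2 CPM of 10.24 ± 0.02 in controls and 9.01 ± 0.01 after knockdown (SD, n = 3). CALR fell by 1.23 on the log2 scale (limma adjusted p = 2.8e-12). PDIA3, the oxidoreductase joined to tapasin, fell by 0.62 (limma adjusted p = 3.5e-09). UGGT1, which returns badly folded glycoproteins to calreticulin, fell by 0.69, and PDIA6, another oxidoreductase, by 0.19. In this complex calreticulin and PDIA3 transcripts thus fell while those of TAP1 and TAP2 rose and TAPBP was not called.

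Of 5 genes of the immunoproteasome and its activators, 1 rose and 3 fell. PSME1 (-0.45) and PSME2 (-0.68), which encode the interferon-induced cap of the proteasome, fell, as did POMP (-0.73), which helps to assemble it, and PSME3 (0.17), a nuclear cap, rose. Of 6 cytosolic peptidases, which trim or destroy peptides before transport, 4 fell and 0 rose (66.7% called). THOP1, an oligopeptidase that degrades such peptides, fell by 0.85, BLMH by 0.29, NPEPPS by 0.23 and LAP3 by 0.19 on the log2 scale. For class I-like molecules and ligands of natural killer cells, 3 of 7 rose and 2 fell. MR1, which presents vitamin metabolites, had a log2 fold change of 0.76, and the NKG2D ligand genes MICB (-0.86) and ULBP3 (-0.65) fell while ULBP1 (0.53) rose. The class II pathway was close to silent, with at most 49 reads for any of its 10 genes measured in any library. Its 1 DEG, named here after its values were seen, was CIITA, the class II master regulator, which fell from 1.51, 1.29 and 1.68 to 0.25, 0.68 and 0.12 on the log2 CPM scale.

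**Figure D4:**
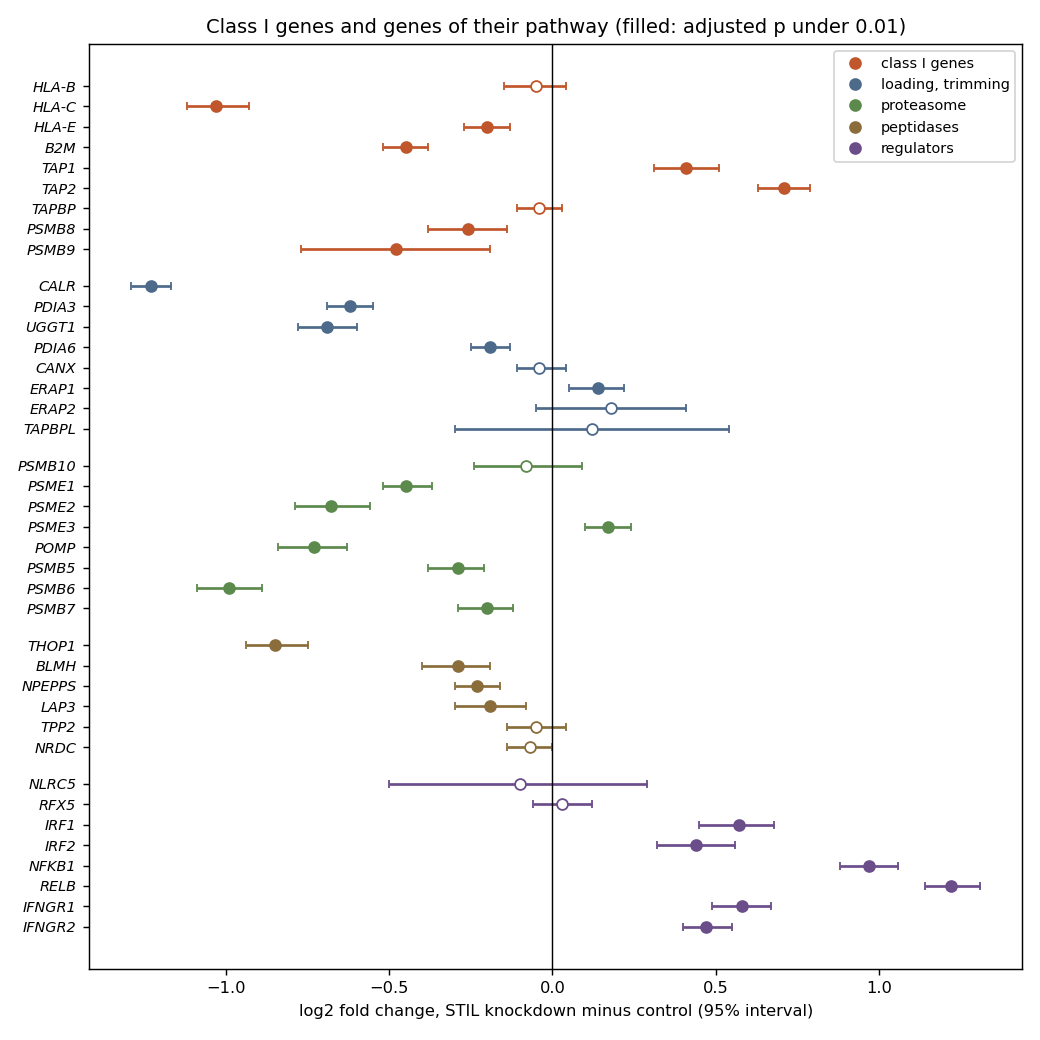
Log2 fold change with its 95% interval for the 9 class I genes and genes that act with them; filled points are DEGs at an adjusted p under 0.01. CANX, ERAP1, ERAP2, TAPBPL, TPP2, NRDC and IRF2 were added after their values were seen. The regulators NFYA, USF1 and RFXANK, which fell, are not drawn. CALR (-1.23) and HLA-C (-1.03) lie furthest to the left and RELB (1.22) furthest to the right.

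Regulators of class I transcription did not move as 1 group. Of 15 transcription factors, 7 rose, 3 fell and 5 were not called (median log2 fold change 0.17). NLRC5, the coactivator of class I genes, had only 39 to 53 reads in control and 39 to 50 in STIL-knockdown libraries, with a log2 fold change of -0.10 (95% interval -0.50 to 0.29). RFX5, which carries NLRC5 to the promoter, had a log2 fold change of 0.03 (95% interval -0.06 to 0.12). The 3 factors that fell were NFYA (-0.45), USF1 (-0.40) and RFXANK (-0.31), with limma adjusted p values of 1.4e-04 or less. RELB (1.22) and NFKB1 (0.97), which encode NF-kB subunits, and ATF1 (1.01), a CREB family factor, rose with limma adjusted p values of 1.4e-09 or less. IRF1 was at a log2 CPM of 4.72, 4.78 and 4.63 in controls and 5.27, 5.28 and 5.27 after knockdown and rose by 0.57 (limma adjusted p = 9.8e-07).

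Of 12 receptors and signal transducers of interferon, 9 were higher and 2 lower (91.7% called), with a median log2 fold change of 0.37. The interferon gamma receptor genes IFNGR1 (0.58) and IFNGR2 (0.47), the type I receptor gene IFNAR2 (0.60) and PTPN2 (0.60), a phosphatase that restrains the pathway, rose. Among 22 other interferon-stimulated genes measured, 3 rose, 8 fell and 11 were not called (50% called, near the 47.1% of all genes), with a median of -0.20. IFIT1 (-1.17) and IFI6 (-1.12) fell, and GBP3 (1.15) and MX1 (1.04) rose.

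The genes whose 6 values lay nearest to those of TAP2, after the control mean of each gene was subtracted, were ICOSLG (root mean square distance 0.017 on the log2 scale), CKLF (0.019) and SMG9 (0.027), where genes with a mean log2 CPM under 3 were left out. Those nearest to HLA-C were SLC25A10 (0.030), PYCR3 (0.037) and NDUFA4 (0.037). This distance largely follows the log2 fold change, and no other class I gene had one close to that of TAP2 (0.71) or HLA-C (-1.03). That none of the 6 was among the 9 class I genes therefore adds nothing to those values.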

How the data were processed

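RNA-seq was performed on 6 libraries of EJ cells. Per the methods, BGISEQ-500 reads were cleaned by SOAPnuke and aligned by Bowtie2 against transcripts, and RSEM then gave the reads of each gene. The submitters' processing notes name hg38, and tool versions are not given in the sources used here. The authors normalised with edgeR and deposited log2 CPM of all 6 libraries, the values used for every main test. The deposited estimated counts of 4 libraries served to check reads recovered from the spacing of the log2 CPM values (87.1 to 87.4% of values within 0.005 of a whole read), and these reads, rounded, entered edgeR and DESeq2. All read numbers given are recovered reads. The headings of the deposited tables read siNC and siSTIL where the labels read shNC and shSTIL, and the labels were followed.

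The 9 genes and the pathway lists were chosen with earlier results of these data known. Groups were compared by limma 3.58.1 (lmFit, then eBayes with the trend option) under R 4.3.3, without a replicate block or filter, with Benjamini-Hochberg adjustment over 15953 genes and the threshold of 0.01 that the methods state. The methods do not name the test. Ratios were tested by exact two-sided permutation over 20 labellings. Genes named beside the 9 were STIL, the ratio partners, NLRC5, IRF1, RFX5, up to 4 DEGs of largest change per list (mean log2 CPM 1 or more), and the 3 genes nearest to the class I genes with the largest rise and fall. HLA-F, HLA-G, NFYA, USF1, RFXANK and the cell type markers were named after their values were seen. Some items that the rule would name are not reported here. Alternatives changed the trend, scaling, filter, prior count, threshold, minimum fold, block, libraries and test (edgeR 4.0.16, DESeq2 1.42.0). The fit was tested on simulated data in which few genes were changed. It called 7.46% of genes changed 1.2-fold, 48.8% of those changed 1.5-fold, 82.3% of those changed 2-fold and 0.108% of unchanged genes. In the real data many more genes were called than were changed in the simulation, so these rates need not hold there. A gene that was not called may still have changed by a small amount. Positions, exons and lengths are those of the principal transcript in GENCODE 29 (GRCh38), and upstream sequences are from RefSeq (GRCh38.p14), aligned with Biopython 1.88.

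Libraries of 1 group differed by more than sampling noise (chi-square per degree of freedom 1.69 to 3.48), so none was counted as a duplicate.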

Additional observations from a re-analysis of the deposited data

How the results depend on the processing

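HLA-C, HLA-E, B2M, TAP1 and TAP2 kept their direction in every alternative run and their call in all but the minimum fold change, where only HLA-C passed. Across these alternatives the log2 fold change of HLA-C lay between -1.06 and -0.98, that of HLA-E between -0.22 and -0.16, that of B2M between -0.47 and -0.41, that of TAP1 between 0.39 and 0.45 and that of TAP2 between 0.69 and 0.75. HLA-B was called in none of them. PSMB9 passed with edgeR (adjusted p = 5.6e-04), DESeq2 (0.00758), the looser threshold of 0.05 and the filter on low values (0.00106). It missed the threshold in limma without the trend (0.0334), after quantile normalization (0.0229), after median centring (0.0106), at a prior count of 0.5 (0.0122) and under the replicate block (0.012). TAPBP, never called, had a log2 fold change of 0.0027 under median centring. Where an absolute log2 fold change above 1 was required, 951 genes passed in all, and 0 class I genes were higher and 1 lower. Leaving out each library in turn gave 4900 (without STIL-knockdown replicate 3) to 5638 DEGs in all, and 3 to 4 lower class I genes, 3 where control replicate 2 or 3 or STIL-knockdown replicate 2 or 3 was absent. These fits have fewer libraries. The median log2 fold change of the 9 genes moved to -0.16 under quantile normalization and under median centring. With the replicate block there were 6898 DEGs, and among the 9 genes only the call of PSMB9 changed. Same-numbered libraries did not deviate together (correlations -0.121, -0.055 and -0.107), so a number pairs nothing here. Where the construction of an alternative does not show it, the cause was not tested. Of the 9 class I genes, PSMB9 had the fewest reads and the largest SE (0.13), against 0.03 to 0.06 for the others.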
